A study of Mus musculus with 9 samples.

Results

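The genes described here are 36 receptors, ligands, latent-ligand binding proteins, SMADs, feedback regulators and targets of the TGF-beta and BMP pathways, read from 52636 gene rows of a raw count table. They were chosen by symbol from a written list, and all 36 were matched in the table. Polyadenylated RNA of mouse liver endothelium had been sequenced. The sort took live cells that lacked CD45, carried CD31 and had bound a VE-cadherin antibody given to the living animal. The 4 control libraries are labelled Wild Type and the 5 others Erg and Fli1 double knockout, after 2 genes for ETS family transcription factors active in endothelium and blood. Mice were given tamoxifen to induce deletion and cells were taken at day 7. The labels give no Cre driver, deleted exons, strain or age of the animals, and they do not say whether the Wild Type mice carried Cre or floxed alleles. Nothing in them says that each library came from its own animal, so the spread behind each p-value is that between libraries, part of which may be technical.

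TGF-beta and BMP ligands bind a type II receptor kinase, which activates a type I receptor kinase. The type I receptor phosphorylates receptor SMADs: SMAD2 and SMAD3 after TGF-beta or activin, SMAD1, SMAD5 and SMAD9 after BMP. These join SMAD4 in the nucleus, where they switch on targets that include their own inhibitors. Endothelium is rich in endoglin, the product of Eng, and in the type I receptor ALK1, the product of Acvrl1, which together with the BMP type II receptor respond to circulating BMP9 and BMP10. Mutations of ENG and ACVRL1 cause hereditary haemorrhagic telangiectasia, a disease of vessel malformations that also affects the liver.

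ETS factors bind a GGAA core, so the 250 bases before the RefSeq start of 5 changed members and of Eng, the member with the most counts, are shown with 2 flanked forms of that core in capitals, CCGGAA and AGGAAG, or their reverse complements TTCCGG and CTTCCT. The changed genes are those with the largest change among members of at least 10 CPM that have an entry in the RefSeq promoter table (build GRCm38.p6). For Ltbp4, 2 of its 3 start sites are shown.
Ltbp4, first window (chr7:27333649-27333898, minus strand): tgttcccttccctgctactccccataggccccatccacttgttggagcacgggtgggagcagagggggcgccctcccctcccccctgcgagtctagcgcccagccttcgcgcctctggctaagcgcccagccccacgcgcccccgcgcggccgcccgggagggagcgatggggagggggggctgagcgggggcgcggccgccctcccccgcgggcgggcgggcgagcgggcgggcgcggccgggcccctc
Ltbp4, last window (chr7:27337613-27337862, minus strand): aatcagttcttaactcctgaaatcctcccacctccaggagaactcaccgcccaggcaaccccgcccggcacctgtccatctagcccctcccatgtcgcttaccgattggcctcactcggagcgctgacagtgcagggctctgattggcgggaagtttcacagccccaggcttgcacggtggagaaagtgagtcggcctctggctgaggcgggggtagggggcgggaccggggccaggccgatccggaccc
Atoh8 (chr6:72235578-72235827, minus strand): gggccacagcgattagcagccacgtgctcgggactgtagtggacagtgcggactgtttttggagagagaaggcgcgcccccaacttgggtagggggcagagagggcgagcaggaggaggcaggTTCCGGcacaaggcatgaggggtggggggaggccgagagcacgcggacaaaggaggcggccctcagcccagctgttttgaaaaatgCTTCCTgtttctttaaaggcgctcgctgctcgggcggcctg
Smad3 (chr9:63757995-63758244, minus strand): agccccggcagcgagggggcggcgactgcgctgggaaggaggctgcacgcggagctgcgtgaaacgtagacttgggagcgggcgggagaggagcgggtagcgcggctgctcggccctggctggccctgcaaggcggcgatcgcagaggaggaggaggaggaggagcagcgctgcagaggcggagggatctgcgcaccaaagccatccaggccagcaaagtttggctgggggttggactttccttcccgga
Fkbp1a (chr2:151542233-151542482, plus strand): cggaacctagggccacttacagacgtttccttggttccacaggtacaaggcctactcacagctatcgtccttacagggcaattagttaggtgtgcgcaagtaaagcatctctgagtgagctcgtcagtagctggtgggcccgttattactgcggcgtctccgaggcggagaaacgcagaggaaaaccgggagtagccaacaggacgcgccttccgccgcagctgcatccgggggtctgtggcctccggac
Tgfb1 (chr7:25686752-25687001, plus strand): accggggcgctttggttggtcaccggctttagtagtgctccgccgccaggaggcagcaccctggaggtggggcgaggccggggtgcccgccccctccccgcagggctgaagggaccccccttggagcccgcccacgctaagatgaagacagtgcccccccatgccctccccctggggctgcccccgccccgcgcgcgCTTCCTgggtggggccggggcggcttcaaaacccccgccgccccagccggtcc
Eng (chr2:32646345-32646594, plus strand): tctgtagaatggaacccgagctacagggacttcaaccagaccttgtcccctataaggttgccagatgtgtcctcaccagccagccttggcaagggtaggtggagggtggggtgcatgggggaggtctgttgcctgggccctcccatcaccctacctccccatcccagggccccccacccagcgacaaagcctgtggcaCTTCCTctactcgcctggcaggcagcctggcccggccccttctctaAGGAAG
The Eng window held AGGAAG at 2 places, starting 52 and 6 bases before the start site. The Tgfb1 window held it at 1 place and the Atoh8 window held each form at 1 place. Neither form occurred in the windows of Ltbp4, Smad3 or Fkbp1a. Over all 27 members with an entry (37 windows), 40.5% of windows held either form, against 38.2% of the 32851 windows in the table, so these letters were about as common before the members as before other genes. The BMP SMAD motif GGCGCC, which reads the same on both strands, was in 10 of the 37 windows (27%, against 9.6% of all windows), among them 2 overlapping windows of Ltbp4 that hold the same single match, which is thus counted in both. The SMAD3 box CAGACA was in 6 of them (16.2%, against 17.1%). These are matches of letters and show no binding. Members without an entry were Tgfbr3, Acvrl1, Bambi, Tgfb3, Smad2, Smad4, Smad7, Skil and Id1.

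Each library held between 26791371 and 36401682 counts, and values are TMM-scaled CPM (counts relative to library size), with the SD after ± except where an SE is named. There are 4 controls and 5 libraries labelled knockout behind each mean. Erg lay between 297 and 337 CPM in the controls and between 131 and 159 CPM in the libraries labelled knockout. Fli1 lay at 90.4 to 109 and at 123 to 172 CPM, a rise that passed the test (log2 0.56 ± 0.12, SE, edgeR adjusted p = 0.00636). Gene-level counts thus showed no loss of Fli1, and the groups are called by their labels throughout. Reads of exons that were not deleted would still be counted, and the labels do not name the deleted exons. Replicates 2 and 3 of the libraries labelled knockout stood apart from the other 3 across all genes, and results that rest on them are given with and without them. Of the 10 endothelial markers, Tek and Stab1 were lower and the rest did not pass the test. Among the rest, Lyve1 was at 815 to 1191 CPM in the controls. Its values in the libraries labelled knockout were 14.5, 937, 260, 29.5 and 28.1 CPM (edgeR adjusted p = 0.200). Only replicate 2 was within the control range. The 10 markers summed to 24931 to 26136 CPM in the controls and 15830 to 20960 CPM in the libraries labelled knockout. The sort's own genes Cdh5 (2190 ± 113 and 2158 ± 193 CPM) and Pecam1 (1482 ± 97.9 and 1408 ± 164 CPM) did not pass the test. Neutrophil markers summed to at most 4.47 CPM in the controls and 7.58 to 22.1 CPM in the libraries labelled knockout, with 4 of 6 higher. Their part in the results was not tested. Markers of T and NK cells (0.295 to 1.45 CPM in sum over 8 genes) and of smooth muscle (at most 4.20 CPM over 6 genes) were near 0. Kupffer cell markers summed to 111 to 481 CPM in the controls and 99.0 to 703 CPM in the libraries labelled knockout, and 0 of 10 passed the test. In sorted bulk RNA, fewer cells of a type and less RNA per cell cannot be told apart.

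Of the 36 members, 35 passed the filter on low counts and were tested, each through libraries of both groups. By the quasi-likelihood test of edgeR, with p adjusted by Benjamini-Hochberg over 14583 genes, 13 of the 35 differed at an adjusted p under 0.05. In the libraries labelled knockout 8 of them were higher and 5 lower. That share is 37.1%, and 29.3% of all genes tested were called. By direction, 22.9% of members were higher (14.5% of all genes) and 14.3% lower (14.8% of all genes). The median log2 fold change of the members was 0.08 (0.01 for all genes) and the median of its absolute value 0.42 (0.30 for all genes), with changes both ways. At least 2-fold changes were called for 5 members, Ltbp4, Bambi, Bmpr1a, Atoh8 and Smad3 (14.3% of members tested, against 11.3% of all genes). The groups did not overlap for 12 members (27% of all genes), which were 11 of the called ones and Acvr2a.

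**Figure D1:**
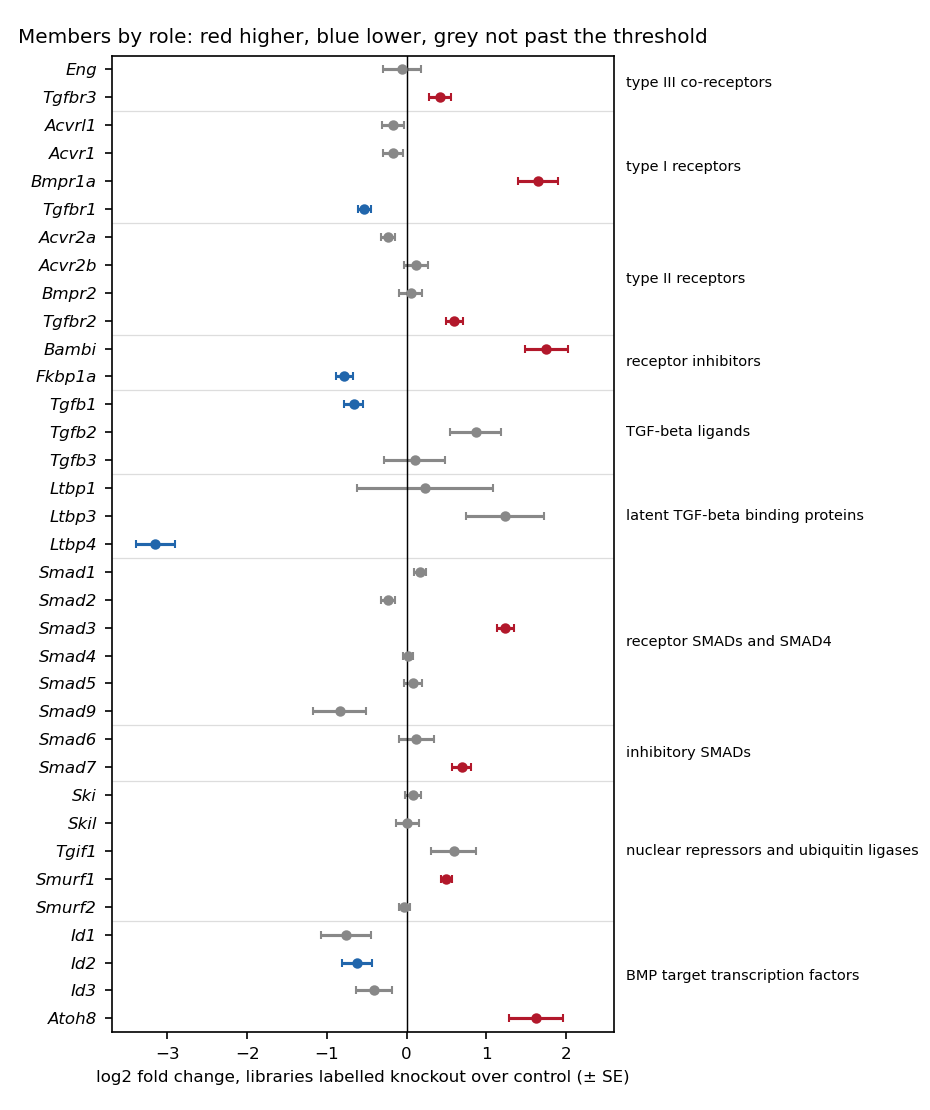
Log2 fold change of the 35 tested members (x axis, libraries labelled knockout over control, bars ± SE), grouped by role. Ltbp4 stands furthest to the left at -3.15, and Bambi, Bmpr1a and Atoh8 furthest to the right at 1.75, 1.65 and 1.62.

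Latent TGF-beta binding proteins hold the inactive TGF-beta complex and fix it in the matrix, and here Ltbp4 showed the largest change of any member. Ltbp4 (ENSMUSG00000040488, GRCm38 chromosome 7, 27305136 to 27337692, minus strand) was at 2830, 2560, 3229 and 3752 CPM in the controls. In the libraries labelled knockout it was at 358, 492, 325, 357 and 205 CPM. Every library labelled knockout was thus far below every control, an 8.90-fold fall (log2 -3.15 ± 0.24, SE, edgeR adjusted p = 3.52e-05). Per length, Ltbp4 made up 99.8% ± 0.0424 of the summed RPKM (CPM divided by exon length in kilobases) of the 4 binding proteins in the controls and 95.8% ± 2.35 in the libraries labelled knockout. The sum itself went from 480 ± 80.4 to 56.3 ± 17.0 RPKM.

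Ltbp3, which is needed to secrete and activate TGF-beta in bone, did not pass the test (8.47 ± 3.04 and 19.9 ± 13.2 CPM, edgeR adjusted p = 0.0891). Its values in the libraries labelled knockout were 14.6, 33.5, 34.5, 7.51 and 9.22 CPM. Replicates 2 and 3 were the high ones, and without both the log2 fold change was 0.31 ± 0.30 (SE) in place of 1.23 ± 0.49. DESeq2 and the fit without replicate 4 called it (adjusted p 0.0235 and 0.0395, up to 0.493 over all 19 alternatives).

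Ltbp1, the widely expressed binding protein, turned direction with 1 library. The controls lay at 3.47, 2.84, 1.86 and 2.42 CPM, and the libraries labelled knockout at 0.706, 11.4, 2.0, 0.884 and 0.534 CPM. Replicates 1, 4 and 5 were below every control, replicate 3 was within their range and replicate 2 was above it. With all libraries the log2 fold change was 0.23 ± 0.85 (SE, edgeR adjusted p = 0.865). Without replicate 2 it was -1.34 (edgeR adjusted p = 0.0407), and without replicates 2 and 3 it was -1.89 ± 0.32 (SE, edgeR adjusted p = 0.00229). Over the alternatives the adjusted p reached 0.956. Ltbp2 had 0 to 10 counts per library and was not tested.

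The ligand genes encode the 3 TGF-beta isoforms, of which TGF-beta 1 is the main one of blood vessels and platelets. Tgfb1 (ENSMUSG00000002603, chromosome 7, 25687002 to 25705077, plus strand) was at 674, 596, 761 and 576 CPM in the controls and at 394, 486, 378, 427 and 376 CPM in the libraries labelled knockout. The groups did not overlap, and Tgfb1 fell 1.58-fold (log2 -0.66 ± 0.12, SE, edgeR adjusted p = 0.00286). Platelet markers lay the other way, at 22.7 to 36.5 CPM in sum over 6 genes in the controls and 63.8 to 137 CPM in the libraries labelled knockout, with 4 of 6 higher, Pf4 and Itga2b among them. Their part in the Tgfb1 result was not tested.

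Tgfb2, an isoform tied to heart valve and vessel development, did not pass the test. It was at 5.01, 6.93, 4.54 and 6.56 CPM in the controls and at 17.3, 10.7, 6.76, 5.63 and 12.2 CPM in the libraries labelled knockout, so 3 of the 5 lay above every control. The log2 fold change was 0.87 ± 0.32 (SE, edgeR adjusted p = 0.0672). DESeq2, scaling by library totals, a sex term and the fits without replicate 3 or 4 labelled knockout called it, and the adjusted p ranged from 0.0214 to 0.200 over the alternatives. Tgfb3 was low in both groups (1.91 ± 0.303 and 2.04 ± 1.23 CPM). Tgfb1 made up 98.8% ± 0.290 of the RPKM of the 3 isoforms in the controls and 97.1% ± 1.0 in the libraries labelled knockout. Stellate cell and fibroblast markers, whose cells also make these ligands and binding proteins, summed to 156 to 269 CPM in the controls and 691 to 1417 CPM in the libraries labelled knockout. Of the 12 genes 2 passed the test, Hgf (91.7 ± 23.5 and 820 ± 309 CPM) and Ecm1 (116 ± 31.5 and 280 ± 77.6 CPM). The others were at most 10.7 CPM in any library. Means were lower in the libraries labelled knockout for Lrat (0.534 ± 0.240 and 0.166 ± 0.167 CPM), Col1a1 (1.18 ± 0.873 and 0.590 ± 0.615 CPM), Col1a2, Col3a1 and Des. They were higher for Dcn (2.40 ± 0.942 and 3.96 ± 3.95 CPM), Reln, Pdgfrb, Lum and Rgs5. Replicate 2 labelled knockout was the highest library for Dcn (10.7 CPM), Rgs5 (6.73 CPM), Col3a1 (5.28 CPM) and Pdgfrb (0.926 CPM). A control was highest for Lrat, Col1a1, Col1a2 and Des, and replicate 3 labelled knockout for Reln and Lum. The part of these markers in the ligand and binding protein results was not tested.

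Among the co-receptors, Eng was the most abundant member and split the libraries labelled knockout. Eng (ENSMUSG00000026814, chromosome 2, 32646595 to 32682669, plus strand) was at 5151, 5027, 5020 and 4602 CPM in the controls. The libraries labelled knockout had 5974, 3110, 3043, 5715 and 5839 CPM. Replicates 1, 4 and 5 were above every control and replicates 2 and 3 below every control. The log2 fold change was accordingly near 0 (-0.06 ± 0.24, SE, edgeR adjusted p = 0.866). Without replicates 2 and 3 it was 0.25 ± 0.10 (SE, edgeR adjusted p = 0.0851, the lowest of the alternatives, which reached 0.991). Endothelial markers differed in this. Kdr, a VEGF receptor gene, was at 5055, 2861, 3160, 4919 and 5338 CPM in the same 5 libraries and at 4491 CPM or more in the controls. Stab2, a scavenger receptor gene of sinusoids, was at 4644, 3130, 3160, 5226 and 6073 CPM, against 5294 CPM or more in the controls, so that replicates 1 and 4 were also below them. As for Eng, replicates 2 and 3 were the lowest for both and below every control. They were also the lowest for Tek, Stab1 and Oit3, and for Cdh5 within a narrower range (2440, 1916, 2086, 2223 and 2124 CPM). For Pecam1, Egfl7 and Lyve1 they were the highest, and for Emcn they were neither the lowest 2 nor the highest 2. For Lyve1 they were at 937 and 260 CPM, against 14.5 to 29.5 CPM in the other libraries labelled knockout. The part of these differences in the Eng result was not tested.

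Tgfbr3 encodes betaglycan, the co-receptor that presents TGF-beta 2 to its receptors. It was at 383, 337, 434 and 412 CPM in the controls and at 514, 458, 425, 628 and 594 CPM in the libraries labelled knockout. Replicate 3 labelled knockout lay within the control range and the other 4 above it. Tgfbr3 rose 1.34-fold (log2 0.42 ± 0.14, SE, edgeR adjusted p = 0.0442). This call ended under 9 of the 19 alternatives, among them a sex term (edgeR adjusted p = 0.0960) and leaving out any 1 control or replicate 1, 4 or 5 labelled knockout, with adjusted p between 0.00548 and 0.135 over all. As with Eng, replicates 2 and 3 had the lowest values of the 5.

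Type I receptors carry the kinase that phosphorylates SMADs. Tgfbr1 (ALK5), the TGF-beta type I receptor, was at 46.2, 37.3, 40.4 and 41.1 CPM in the controls and at 29.4, 26.6, 27.7, 28.2 and 30.5 CPM in the libraries labelled knockout. Every library labelled knockout was below every control, a 1.45-fold fall (log2 -0.53 ± 0.08, SE, edgeR adjusted p = 9.95e-04). Bmpr1a (ALK3), a BMP type I receptor, went the other way from a very low level. The controls had 29 to 31 reads each, 0.949, 0.937, 0.977 and 0.886 CPM. The libraries labelled knockout had 57 to 138 reads, 2.01, 4.26, 2.44, 3.39 and 2.64 CPM, a 3.14-fold rise (log2 1.65 ± 0.25, SE, edgeR adjusted p = 0.00132).

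The type I receptors of the endoglin pathway did not pass the test. Acvrl1 (ALK1) was at 93.8 ± 15.2 and 83.6 ± 13.5 CPM (log2 -0.17 ± 0.14, SE, edgeR adjusted p = 0.411). Acvr1 (ALK2), which also serves BMPs, was at 78.0 ± 4.19 and 69.3 ± 11.8 CPM (log2 -0.17 ± 0.12, SE). Per length, among the 4 type I receptors listed here, Acvrl1 had the largest share, with 49.1% ± 3.08 of their RPKM in the controls and 50.5% ± 1.83 in the libraries labelled knockout. Acvr1 followed with 36.3% ± 2.22 and 36.9% ± 1.53, then Tgfbr1 with 14.2% ± 1.48 and 11.4% ± 1.14. Bmpr1a stayed a small part, 0.334% ± 0.0410 and 1.25% ± 0.551. The activin type I receptor gene Acvr1b, outside these 4, was at 10.1 ± 0.619 and 13.8 ± 0.941 RPKM, above Tgfbr1 (6.31 ± 0.563 and 4.36 ± 0.227 RPKM).

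Type II receptors activate the type I receptors. Tgfbr2, the TGF-beta type II receptor, was at 503, 448, 459 and 415 CPM in the controls and at 744, 623, 630, 679 and 792 CPM in the libraries labelled knockout. All 5 were above the highest control, a 1.52-fold rise (log2 0.60 ± 0.11, SE, edgeR adjusted p = 0.00275), opposite in direction to its partner Tgfbr1. Bmpr2, the BMP type II receptor whose loss underlies heritable pulmonary hypertension, was at 452 ± 60.1 and 469 ± 72.1 CPM (log2 0.05 ± 0.14, SE). The activin receptor Acvr2b was at 7.14 ± 1.12 and 7.74 ± 0.984 CPM. Its relative Acvr2a was at 34.7, 35.6, 34.4 and 44.2 CPM in the controls and at 29.3, 33.7, 33.9, 30.2 and 31.7 CPM in the libraries labelled knockout. The Acvr2a groups did not overlap by a narrow margin, but the test was not passed (log2 -0.23 ± 0.09, SE, edgeR adjusted p = 0.0923). Its exons share 446 bases with Orc4 on the other strand, so its counts may hold reads of that gene. Tgfbr2 made up 62.4% ± 4.32 of the RPKM of the 4 type II receptors in the controls and 71.5% ± 2.93 in the libraries labelled knockout, and their sum was 89.2 ± 3.30 and 118 ± 9.87 RPKM.

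**Figure D2:**
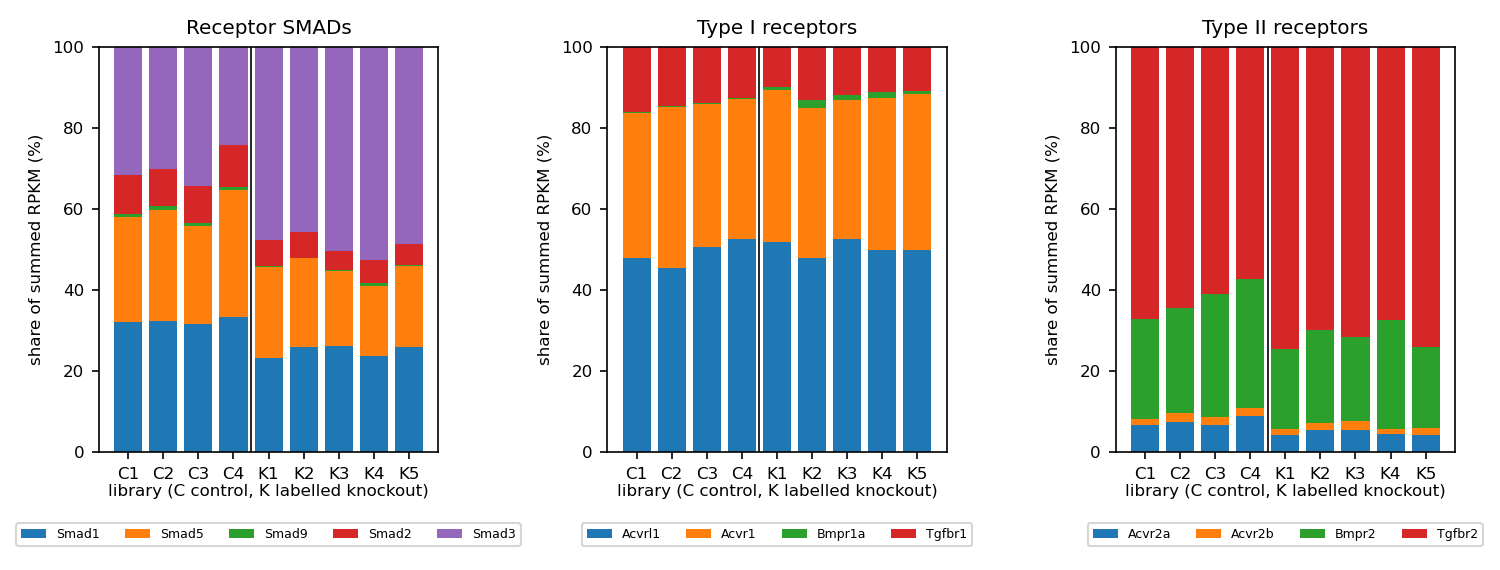
Share of summed RPKM (y axis, percent) held by each gene within receptor SMADs, type I and type II receptors, 1 bar per library. Smad3 holds 24.2% to 34.2% in the 4 controls and 45.6% to 52.6% in the 5 libraries labelled knockout, while Acvrl1, Acvr1, Tgfbr1 and Bmpr1a keep their order.

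The 2 members that restrain receptors changed in opposite directions. Bambi (ENSMUSG00000024232, chromosome 18, 3507923 to 3516404, plus strand) encodes a pseudoreceptor that lacks the kinase. It was at 20.5, 23.4, 16 and 20.1 CPM in the controls and at 100, 51.8, 35.6, 77.2 and 71.5 CPM in the libraries labelled knockout. All 5 exceeded the controls, a 3.36-fold rise (log2 1.75 ± 0.27, SE, edgeR adjusted p = 0.00154), and replicates 2 and 3 had risen least. Fkbp1a encodes FKBP12, which binds type I receptors and keeps them from signalling without ligand. It was at 727, 661, 693 and 640 CPM in the controls and at 422, 441, 434, 353 and 330 CPM in the libraries labelled knockout, a 1.72-fold fall without overlap (log2 -0.78 ± 0.11, SE, edgeR adjusted p = 8.71e-04).

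Of the receptor SMADs only Smad3 passed the test. Smad3 (ENSMUSG00000032402, chromosome 9, 63646767 to 63757994, minus strand), which carries TGF-beta signals, was at 68.0, 59.7, 74.5 and 52.9 CPM in the controls. The libraries labelled knockout were at 149, 128, 165, 155 and 155 CPM, all far above the controls. The rise was 2.36-fold (log2 1.24 ± 0.11, SE, edgeR adjusted p = 8.09e-05). Its partner Smad2 was at 32.3 ± 2.91 and 27.6 ± 2.71 CPM (log2 -0.23 ± 0.09, SE, edgeR adjusted p = 0.0951). Smad2 passed only without replicate 1 labelled knockout (edgeR adjusted p = 0.0437, with 0.239 the highest over the alternatives).

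Smad1, Smad5 and Smad9 carry BMP signals, and none passed the test. Smad1 was at 77.5 ± 4.16 and 86.9 ± 7.98 CPM (log2 0.17 ± 0.08, SE), and Smad5 at 77.5 ± 9.59 and 82.1 ± 9.04 CPM (0.08 ± 0.11, SE). Smad9 was scarce, at 1.63 ± 0.273 and 0.909 ± 0.431 CPM (log2 -0.84 ± 0.33, SE, edgeR adjusted p = 0.0858). Smad9 passed under limma-voom and without replicate 4 labelled knockout (adjusted p 0.0434 and 0.0150, with 0.199 the highest over the alternatives). Smad4, the shared partner, had one of the smallest differences of the members, 95.9 ± 4.87 and 97.1 ± 3.57 CPM (log2 0.02 ± 0.06, SE). Per length, Smad1 led the 5 receptor SMADs in the controls with 32.3% ± 0.789 of their RPKM, and Smad3 with 24.2% to 34.2% overlapped it. In the libraries labelled knockout Smad3 held 49.0% ± 2.68 and Smad1 25% ± 1.42.

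The inhibitory SMADs block receptors and compete for SMAD4, and both are targets of the pathway. Smad7, which restrains TGF-beta and BMP signals alike, was at 133, 121, 127 and 156 CPM in the controls and at 242, 171, 232, 212 and 228 CPM in the libraries labelled knockout. The groups did not overlap, and Smad7 rose 1.61-fold (log2 0.69 ± 0.12, SE, edgeR adjusted p = 0.00215). Smad6, which mainly restrains BMP signals, was at 224, 189, 203 and 268 CPM in the controls and at 296, 253, 144, 310 and 197 CPM in the libraries labelled knockout. These values scattered to both sides of the controls (log2 0.12 ± 0.22, SE, edgeR adjusted p = 0.717).

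Among the ubiquitin ligases and nuclear repressors, only Smurf1 passed the test. Smurf1, a ligase that marks SMADs and receptors for degradation, was at 93.6, 92.4, 101 and 111 CPM in the controls and at 148, 137, 134, 145 and 138 CPM in the libraries labelled knockout. It rose 1.41-fold without overlap (log2 0.50 ± 0.07, SE, edgeR adjusted p = 0.00110). Its relative Smurf2 was at 131 ± 11.3 and 128 ± 4.21 CPM (log2 -0.03 ± 0.07, SE). The repressors Ski (271 ± 19.8 and 287 ± 31.5 CPM) and Skil (64.6 ± 15.1 and 65.1 ± 5.09 CPM) did not pass the test. The homeobox repressor gene Tgif1 was at 18.6, 23.1, 20.9 and 19.7 CPM in the controls and at 25.5, 44.3, 45.7, 19.5 and 19.3 CPM in the libraries labelled knockout. Only replicates 2 and 3 were far above the controls, and without them the log2 fold change was 0.07 ± 0.13 (SE) in place of 0.59 ± 0.28.

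**Figure D3:**
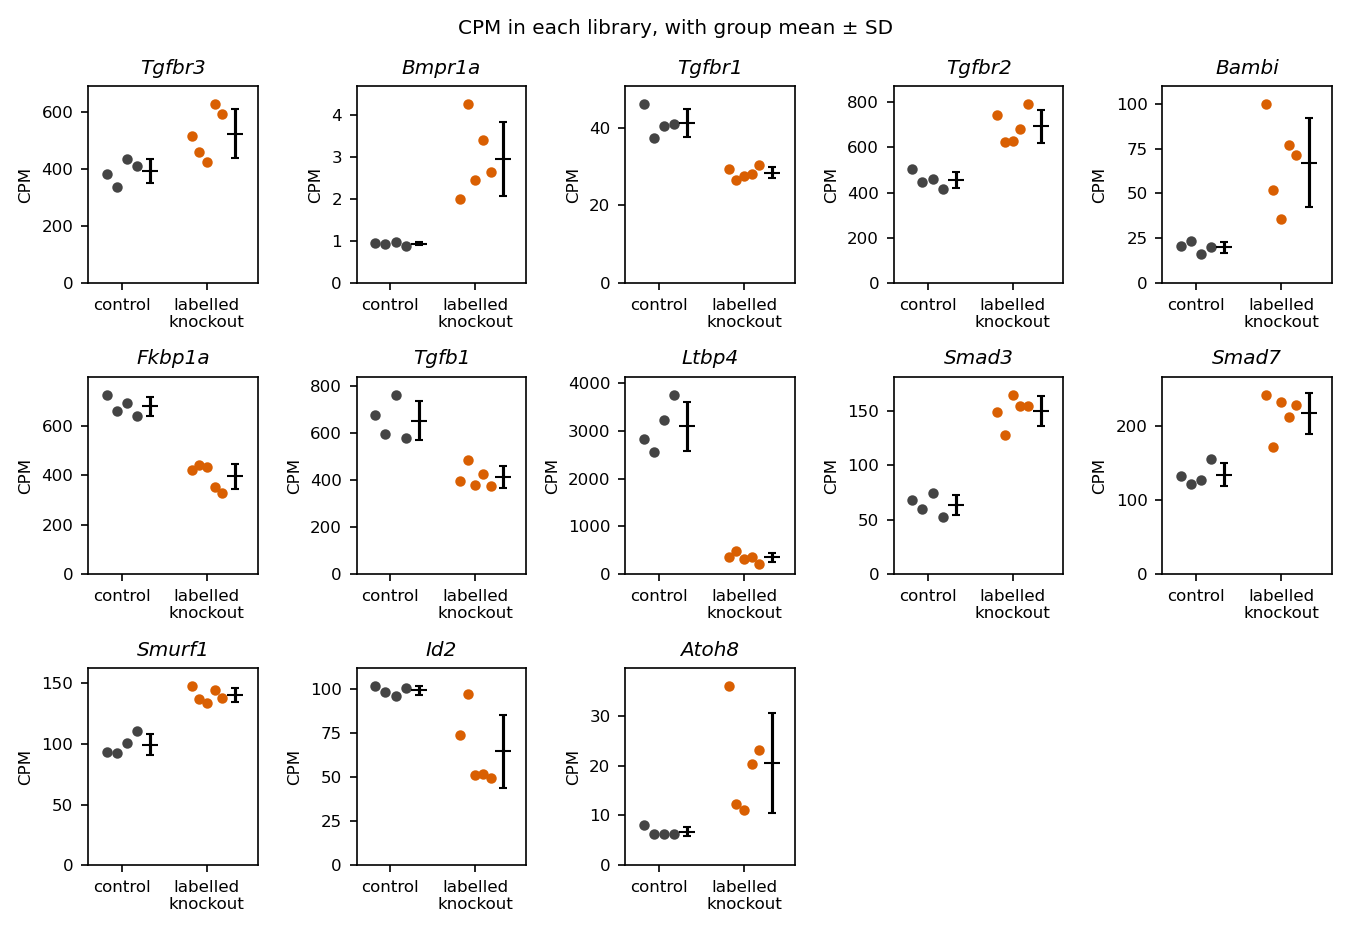
CPM (y axis, from 0) of the 13 called members in each control library (grey) and each library labelled knockout (orange), with mean ± SD beside the points. The groups overlap for Tgfbr3 and Id2 and do not overlap for the other 11.

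The Id genes, inhibitors of basic helix-loop-helix factors, are classic BMP targets, and Atoh8 is a helix-loop-helix factor induced through ALK1. Atoh8 was higher in the libraries labelled knockout, while the means of Id1, Id2 and Id3 were all lower there, with only Id2 past the test. Atoh8 (ENSMUSG00000037621, chromosome 6, 72206177 to 72235577, minus strand) was at 8.02, 6.28, 6.18 and 6.26 CPM in the controls and at 36.0, 12.2, 11.0, 20.4 and 23.1 CPM in the libraries labelled knockout. All 5 exceeded the controls, a 3.07-fold rise (log2 1.62 ± 0.34, SE, edgeR adjusted p = 0.00617), with the smallest values in replicates 2 and 3. Without those the rise was 3.99-fold.

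Id2 was at 102, 98.6, 96.0 and 101 CPM in the controls and at 73.9, 97.3, 51.3, 51.8 and 49.5 CPM in the libraries labelled knockout. Replicate 2 lay within the control range and the other 4 below it. Id2 fell 1.53-fold (log2 -0.62 ± 0.19, SE, edgeR adjusted p = 0.0396), a call that ended under 11 of the 19 alternatives, with adjusted p between 0.00177 and 0.0873. Leaving out any 1 control, or replicate 1, 3, 4 or 5 labelled knockout, was enough.

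Id1 was at 70.1, 86.3, 53.0 and 80.6 CPM in the controls and at 58.1, 57.2, 17.0, 39.1 and 42.5 CPM in the libraries labelled knockout, where replicate 3 was by far the lowest. The log2 fold change of -0.76 ± 0.31 (SE) missed the threshold (edgeR adjusted p = 0.0954). DESeq2 and the fit without replicates 2 and 3 passed it (adjusted p 0.0467 and 0.0413, with 0.224 the highest over the alternatives). Id3 was at 418, 426, 388 and 360 CPM in the controls and at 383, 345, 147, 288 and 336 CPM in the libraries labelled knockout, again lowest in replicate 3 (log2 -0.41 ± 0.23, SE, edgeR adjusted p = 0.217). Per length Id3 led the 3 Id genes in both groups, with 68.3% ± 3.13 and 72.4% ± 3.44 of their RPKM.

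Replicates 2 and 3 labelled knockout were the lowest 2 of the 5 for 10 of the 35 members (28.6%, against 18.6% of all genes). These were Eng, Tgfbr3, Acvrl1, Acvr1, Tgfbr1, Tgfbr2, Bambi, Ski, Smurf1 and Atoh8, of which 7 are receptors, co-receptors or the pseudoreceptor. They were the highest 2 for 7 members (20.0%, against 18.4%), namely Acvr2a, Fkbp1a, Tgfb3, Ltbp1, Ltbp3, Smad4 and Tgif1. Leaving both out kept all 13 calls and added lower calls for Ltbp1 and Id1, which gave 8 higher and 7 lower.

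**Figure D4:**
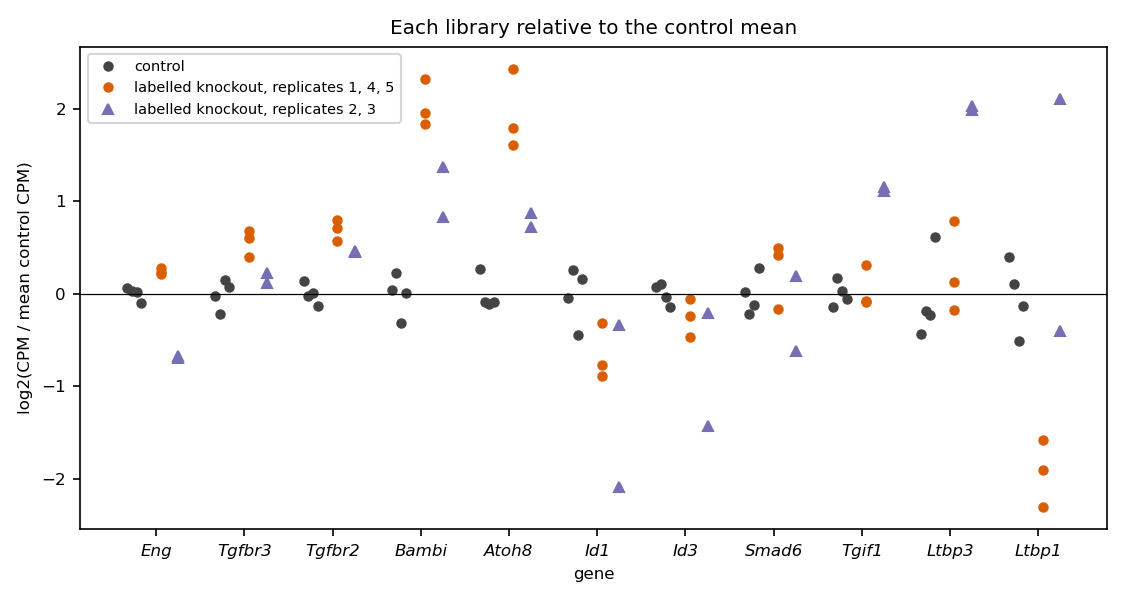
Log2 ratio of each library's CPM to the mean control CPM (y axis) for 11 members, with replicates 2 and 3 labelled knockout as triangles. The triangles lie below 0 for Eng, where the other 3 libraries lie above 0, and they lie apart from the other 3 for Tgif1 and Ltbp1.

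The other genes of the pathway were read from 7 lists of 124 genes, of which 93 were tested. The lists were chosen by role, with earlier results of these data known, so their shares are no independent result. In the libraries labelled knockout 28 of the 93 tested genes were higher and 17 lower (48.4%, against 29.3% of all genes). Chrd and Itgb8, both called higher, passed the count filter only through the libraries labelled knockout, as no control reached 0.312 CPM. Gdf10, also higher, reached it in some controls (0.131, 0.375, 0.599 and 0.207 CPM), too few to pass without the libraries labelled knockout. Nog and Gja5, called lower, likewise needed the controls to pass. Of the 10 tested genes that release or hold latent TGF-beta, 8 were higher, Itgb8 among them, and 1 lower (90.0%, against 29.3% of all genes). Their median log2 fold change was 0.96, against 0.01 for all genes. Furin, the protease that cuts the TGF-beta precursor, rose from 161 ± 15 to 313 ± 14.9 CPM (edgeR adjusted p = 6.76e-05). The membrane protease gene Mmp14 rose 1.95-fold and the microfibril gene Fbn1, whose product anchors the binding proteins, from 19.0 ± 3.10 to 119 ± 43.3 CPM. Nrros, which tethers latent TGF-beta on macrophage-lineage cells, fell 2.72-fold from 138 ± 24 CPM.

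Ligands outside the TGF-beta isoforms included 2 higher and 3 lower of 7 tested (71.4%, against 29.3% of all genes). Bmp4 fell from 12.9 ± 3.02 to 1.28 ± 0.349 CPM, and Bmp6, which signals iron load to hepatocytes, 3.93-fold. The inhibin subunit gene Inha rose from 1.12 ± 0.364 to 13.1 ± 4.16 CPM. Gdf10 rose from 0.328 ± 0.207 to 18.9 ± 12.8 CPM, which was 57.0-fold, or 31.5-fold when replicates 2 and 3 labelled knockout were left out. Gdf2 and Bmp10, which encode the ligands BMP9 and BMP10, were below the filter at means of at most 0.374 and 0.0164 CPM. Of 4 tested receptors outside the members, 1 was higher: Acvr1b (ALK4) rose from 44.5 ± 2.74 to 60.9 ± 4.16 CPM.

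Extracellular modulators included 4 higher and 4 lower of 14 tested (57.1%, against 29.3% of all genes). Bmp1, a metalloprotease that is no BMP ligand, lay at 0.788 to 1.31 CPM in the controls and 119 to 570 CPM in the libraries labelled knockout. The Nodal antagonist gene Lefty1 fell 2.86-fold and the BMP antagonist gene Nog (noggin) 7.28-fold from 1.32 ± 0.596 CPM. The antagonist gene Chrd (chordin) lay at 0 to 0.0886 CPM in the controls and 0.367 to 1.20 CPM in the libraries labelled knockout. Intracellular regulators included 6 higher and 5 lower of 27 tested (40.7%, against 29.3% of all genes). Xiap, which links BMP receptors to the kinase TAK1, fell from 410 ± 33.9 to 174 ± 9.57 CPM (edgeR adjusted p = 1.86e-05). The endocytic adaptor gene Dab2 fell 2.98-fold, the TAK1 partner gene Tab1 rose 2.01-fold and the repressor gene Tgif2 3.89-fold.

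Further targets were called both ways. Of 8 tested BMP targets outside the members, 0 were higher and 2 lower: Gja5, a gap junction gene, fell 20.7-fold from 8.15 ± 4.69 CPM and the transcription factor gene Sox18 2.59-fold. Of 23 tested TGF-beta targets, 7 were higher and 2 lower (39.1%, against 29.3% of all genes). Angptl4, a lipase inhibitor gene, rose from 2.40 ± 0.279 to 36.7 ± 19.8 CPM and the cell cycle inhibitor gene Cdkn2b 2.17-fold. The transcription factor gene Snai2 fell 3.04-fold and the integrin gene Itga5 1.81-fold.

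**Figure D5:**
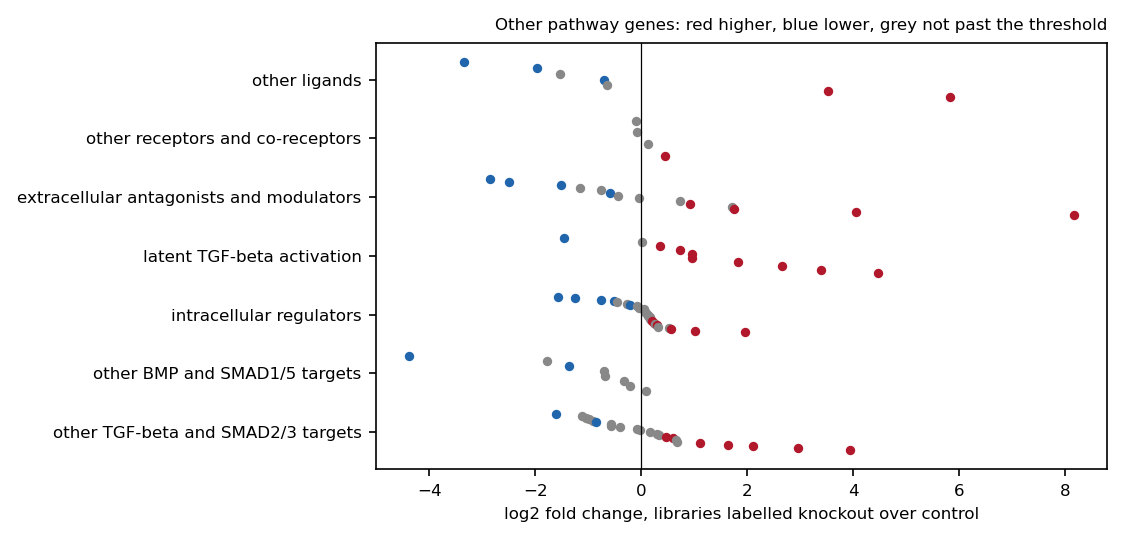
Log2 fold change (x axis, libraries labelled knockout over control) of the 93 tested pathway genes outside the members, 1 point per gene in 7 lists. In the list of latent TGF-beta activation 8 of 10 points are red and 1 is blue.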

How the data were processed

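The values deposited by the authors are raw counts, with Ensembl genes in rows and libraries in columns. The build GRCm38 and the tools STAR 2.7.6a and FastQC 0.11.5 are named per the submitters' processing notes. How reads were counted, with which annotation and strand setting, is not given in the sources used here, so reads of overlapping genes on opposite strands may be merged. Per the labels' protocols, an unstranded or a stranded TruSeq kit was used, without saying for which library. Columns were matched to sample descriptions, and groups and replicate numbers come from the titles. Within groups, every pair of libraries differed well beyond counting noise (chi-square over its degrees of freedom, 20.3 to 182), so none was treated as a copy.

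Symbols, coordinates and exon lengths came from GENCODE M21 (GRCm38), which named 52489 of 52636 identifiers. Low genes were removed by filterByExpr within groups (10 counts, total 15). After TMM scaling, edgeR 4.0.16 (R 4.3.3) tested the rest (robust glmQLFit and glmQLFTest, no covariate, two-sided, Benjamini-Hochberg adjustment, threshold 0.05). Each SE is the absolute log2 fold change divided by the root of F. One count was worth 0.0260 to 0.0368 CPM. The test was checked on simulated counts. There it called 62 of 100 genes changed 2-fold, 93 of 100 changed 4-fold and 6 unchanged genes, so smaller changes can be missed. Only the genes changed 2-fold and 4-fold differed among the 14374 simulated, whereas 4271 of 14583 were called in the data. The adjusted threshold was thus stricter in the simulation, and recovery in the data may differ.

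Alternatives were DESeq2 1.42.0, limma-voom (limma 3.58.1), 3 other scalings, 2 other filters, a replicate block, a sex term (Xist against Ddx3y counts), and leaving out each library or replicates 2 and 3 labelled knockout together. By Xist against Ddx3y counts, control replicate 3 and replicates 3, 4 and 5 labelled knockout were female and the others male. The sexes were thus not balanced between the groups. The members, the lists and these alternatives were chosen with earlier results of these data known. Every member is described, and each pathway list is named by up to 4 called genes with the smallest p. Marker and check genes are named where a result touches them. Of the pathway list, Hjv had no match.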

Additional observations from a re-analysis of the deposited data

Results flagged for a closer look

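In 5 of 70 groups of member values, 1 library lay far from the rest by Dixon's gap ratio, which chance gives in about 1 group in 20. Control replicate 4 was the high library for 3 of these genes: Acvr1 at 84.2 CPM (next highest control 76.5), Acvr2a at 44.2 CPM (35.6) and Smurf2 at 148 CPM (126). Control replicate 1 was high for Atoh8, at 8.02 CPM with the next control at 6.28. Replicate 2 labelled knockout was high for Ltbp1, at 11.4 CPM with the next of its group at 2.0.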

How the results depend on the processing

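Over 19 alternatives, 7 to 10 members were called higher and 4 to 7 lower (DESeq2 10 and 6). Of the 13 called members, 11 kept the call in every alternative that tested them, and Tgfbr3 and Id2 did not. Leaving out 1 library gave 7 to 9 members higher and 4 to 6 lower, 20 to 26 other pathway genes higher and 15 to 19 lower, and 1495 to 1981 of all genes higher and 1591 to 2040 lower. With the replicate number as a block, 1296 of all genes were higher and 1375 lower, and 18 other pathway genes were higher. Under the block Tgfbr3 (edgeR adjusted p = 0.130) and Id2 (0.0692) lost the call and Id1 (0.0499) gained it. The numbers did not pair the libraries: deviations of same-numbered libraries correlated at 0.29, -0.03, -0.02 and -0.33, and 1 of 4 controls correlated best with its own number. Members that changed sign were uncalled with all libraries, and the cause was not tested. With each single library left out in turn, their log2 fold change ran from -0.16 to 0.06 for Eng, -0.04 to 0.11 for Bmpr2, -0.32 to 0.26 for Tgfb3, -1.34 to 0.50 for Ltbp1, -0.01 to 0.04 for Smad4, -0.09 to 0.18 for Skil and -0.06 to 0.03 for Smurf2. Without replicates 2 and 3 labelled knockout it was 0.25 for Eng, -0.52 for Tgfb3, -1.89 for Ltbp1, -0.01 for Smad4 and -0.03 for Skil. It was -0.03 for Tgfb3 and -0.70 for Ltbp1 with limma-voom, -0.38 for Ltbp1 with the replicate block, -2.6e-03 for Bmpr2 with a sex term and 0.03 for Smurf2 with library totals. Scalings moved the median log2 fold change of all genes by at most 0.0647. The members with the fewest counts were Ltbp2, which was not tested, Smad9, Tgfb3 and Bmpr1a.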

Other observations

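The coefficient of variation between libraries was larger in the group labelled knockout than in the controls for 24 of the 35 tested members (68.6%) and for 68.5% of all genes tested. Its median over the members was 12.4% in the controls and 16.1% in the libraries labelled knockout, and over all genes 12.5% and 17.8%.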
